A study of Mus musculus with 33 samples.

Results

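Transcripts of the choroid plexus were followed through frontal cortex RNA-Seq libraries of mouse offspring by 9 genes, Ttr, Kl, Folr1, Clic6, Aqp1, Otx2, Slc4a5, Cldn2 and F5, which were found by symbol in both deposited count tables, where they make up 9 of 23366 gene rows. All 9 passed the filter on low counts, in a table of 15158 female and a table of 15293 male genes tested. The mice were C57BL/6 offspring of about 1 month of age. Dams were exposed during gestation, and later together with their nursing pups, by whole-body inhalation of filtered air, of aerosol from e-cigarette cartridges with nicotine (13 to 16 mg/ml), or of aerosol from cartridges without nicotine. The libraries comprised 6 female air, 5 female nicotine, 5 female no nicotine, 6 male air, 6 male nicotine and 5 male no nicotine offspring, with a single pup taken per litter. Filtered air was the comparator for aerosol, and aerosol without nicotine the comparator for nicotine. Females and males were sequenced in separate runs, so exposures were tested within each table. Where levels are set over the libraries of both tables, run and sex differ as well.

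The choroid plexus is the sheet of epithelium that lines fronds in the brain ventricles and secretes cerebrospinal fluid. Its cells move salt, bicarbonate and water from blood to ventricle, seal the paracellular path with tight junctions, and release carrier proteins into the fluid. The tissue lies inside the ventricles and is no part of the frontal cortex, so in a cortical library its transcripts are usually scarce. Transthyretin (Ttr), a carrier of thyroid hormone and retinol, is among the most abundant transcripts of this epithelium. Klotho (Kl) is a co-receptor for a fibroblast growth factor. The folate receptor Folr1 takes folate into cerebrospinal fluid. Slc4a5 is a sodium bicarbonate cotransporter, Aqp1 a water channel and Clic6 an intracellular chloride channel protein. Cldn2 is a claudin of leaky tight junctions, Otx2 a homeodomain transcription factor, and F5 is coagulation factor V.

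On the mouse build mm9 used for the counts, Folr1 lies at chr7:109006845-109019302, Slc4a5 at chr6:83169822-83254939, Cldn2 at chrX:136335367-136345925 and Kl at chr5:151755182-151796384. Clic6 lies at chr16:92485981-92541488, Otx2 at chr14:49277354-49287319, Aqp1 at chr6:55286426-55298549 and F5 at chr1:166081969-166150408. These genes stand on different chromosomes, except Aqp1 and Slc4a5, which are both on chromosome 6. Of the 50-base windows in their annotated coding transcripts, 11 of 5061 in Kl and 0 in the other 8 genes also occur in transcripts of another gene. An exon of an annotated gene on the opposite strand overlaps F5 over 262 of its 7430 exon bases and Ttr over 11 of 1219 bases.

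The promoters of 3 members are shown because Slc4a5 and Cldn2 were high in the same few libraries and because Otx2 is itself a DNA-binding protein. RefSeq promoter sequences on GRCm38.p6 were held for 6 of the 9 members (F5, Kl, Aqp1, Slc4a5, Otx2 and Cldn2), and Ttr, Folr1 and Clic6 had no entry. The 250 bases before each start site were searched on both strands for TAATCC, the core bound by Otx-type homeodomains. It was present in 1 of 9 member windows, the third of the 4 Otx2 start sites, where it begins 211 bases before the start and reads as its reverse complement, in capitals below. Of all 32851 promoter windows, 6.25% held it. The letters TAATCC are not in the Slc4a5 or the Cldn2 window. All 3 are written 5′ to 3′ on the strand of the gene.
Otx2, chr14:48665110-48665359 (- strand): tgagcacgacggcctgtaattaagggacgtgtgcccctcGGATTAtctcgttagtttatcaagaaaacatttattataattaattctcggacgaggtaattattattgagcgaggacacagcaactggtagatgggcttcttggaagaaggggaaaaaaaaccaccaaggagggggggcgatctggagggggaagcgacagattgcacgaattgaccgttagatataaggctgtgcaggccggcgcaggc
Slc4a5, chr6:83237125-83237374 (+ strand): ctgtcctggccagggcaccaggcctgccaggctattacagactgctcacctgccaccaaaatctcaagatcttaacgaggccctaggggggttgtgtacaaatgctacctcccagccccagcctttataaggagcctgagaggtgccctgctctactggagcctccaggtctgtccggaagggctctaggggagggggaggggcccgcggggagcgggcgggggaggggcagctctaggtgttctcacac
Cldn2, chrX:139800558-139800807 (+ strand): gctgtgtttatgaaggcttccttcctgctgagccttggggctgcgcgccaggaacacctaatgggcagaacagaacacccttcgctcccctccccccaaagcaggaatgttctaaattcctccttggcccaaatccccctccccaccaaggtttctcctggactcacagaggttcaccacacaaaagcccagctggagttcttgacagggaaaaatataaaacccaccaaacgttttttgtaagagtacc

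The libraries held 19150562 to 27513174 counts in the female and 17845672 to 24787955 in the male table. Levels are CPM, the counts of a gene relative to the total of its library, scaled by the normalisation factors of edgeR, which lay between 0.954 and 1.04. Genes were called at an adjusted p below 0.01 in the quasi-likelihood test of edgeR (Benjamini-Hochberg over all genes tested), and log2 fold changes are given ± SE. The tissue label was checked with 8 markers of cortical glutamatergic neurons, of which none was absent from any library. The library labelled male nicotine 21 had 215 CPM of Xist, which is made from the inactive X, and 1 count over 4 Y-linked genes, whereas the other 16 male libraries had at most 0.253 CPM of Xist. It is called the library labelled male nicotine 21 throughout.

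Ttr separated 4 libraries from the other 29. It reached 838 CPM (17708 counts) in male no nicotine 7, 268 CPM (6520 counts) in female air 3, 219 CPM (5613 counts) in female no nicotine 3 and 87.2 CPM (1999 counts) in female air 6. The other 29 libraries ran from 0.255 to 19.4 CPM with a median of 1.69. The highest of those 29 was male air 30, with 476 counts. Against the median of the remaining libraries of its own table, Ttr was 422-fold higher in male no nicotine 7, 186-fold in female air 3, 152-fold in female no nicotine 3 and 60.6-fold in female air 6. These 4 libraries were singled out after their Ttr values had been seen, and they are described as single libraries, not as a group. In bulk tissue, more cells of a type and more RNA per cell cannot be told apart.

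The 4 libraries came from air and no nicotine groups, and a link with exposure was not tested. They comprised 2 of 6 female air, 1 of 5 female no nicotine, 1 of 5 male no nicotine and none of the 11 nicotine libraries. The 6 female air libraries ran from 0.491 to 268 CPM of Ttr with a median of 1.89. The female nicotine libraries held 1.44, 5.56, 0.988, 0.965 and 0.323 CPM, and the female no nicotine libraries 0.529, 5.79, 219, 3.56 and 1.69 CPM. In males, the air libraries ran from 0.255 to 19.4 CPM with a median of 1.39, and the nicotine libraries from 1.25 to 4.77 CPM with a median of 1.99. The male no nicotine libraries held 3.86, 8.25, 1.53, 5.36 and 838 CPM. The groups of a table overlapped in every pair, and within 3 of the 6 groups the highest library exceeded the lowest by more than 100-fold, as the plot of Ttr by library shows.

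**Figure D1:**
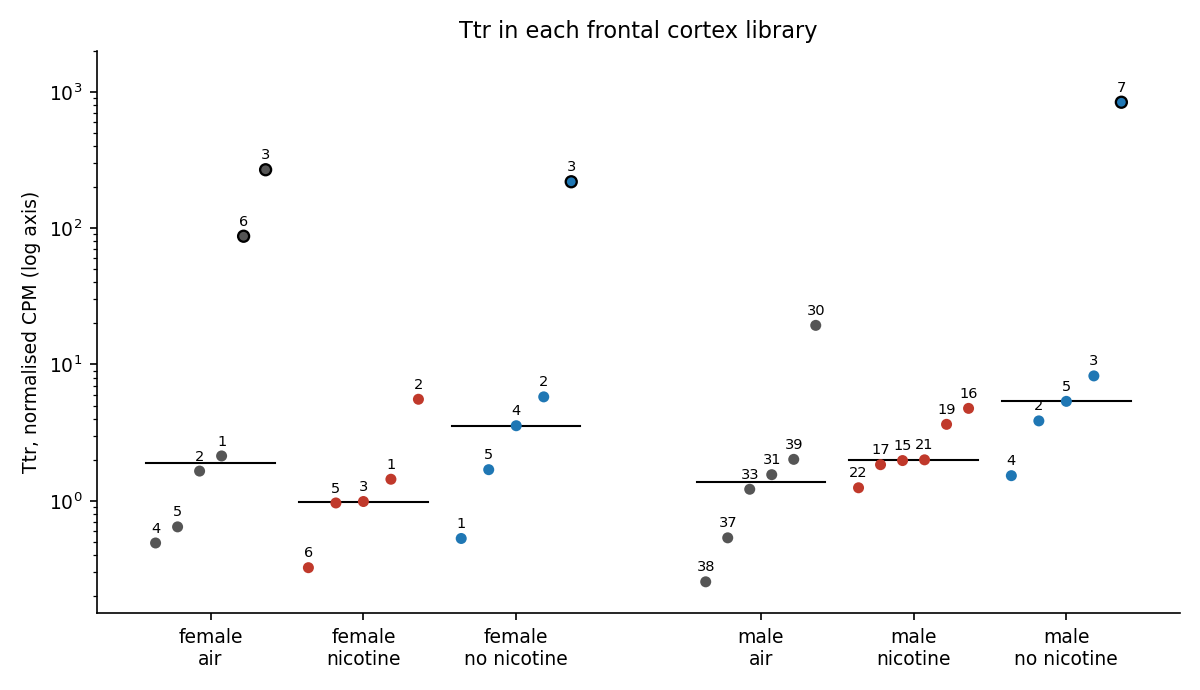
Ttr in each of the 33 libraries as normalised CPM on a log axis, by sex and exposure. Points are libraries with their replicate number, lines are group medians, and black rings mark female air 3, female air 6, female no nicotine 3 and male no nicotine 7, which reached 87.2 to 838 CPM while the other libraries stayed at or below 19.4 CPM.

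The folate receptor, the bicarbonate cotransporter and the claudin were highest in the same 4 libraries. Folr1 had 8.57 CPM in male no nicotine 7, 3.74 in female air 3, 3.16 in female no nicotine 3 and 0.960 in female air 6, and at most 0.488 CPM (12 counts) in the other 29. Slc4a5 had 9.14, 2.92, 3.43 and 1.48 CPM in those libraries, in that order, and at most 0.366 CPM (9 counts) elsewhere. Cldn2 had 12.9, 3.95, 2.50 and 1.13 CPM, and at most 0.673 CPM (16 counts) elsewhere. For each of these 3 genes, which take part in transport and sealing of the epithelium, all 4 libraries thus lay above every other library. Male air 30, the next by Ttr, was also the highest of the other 29 for Folr1 and Slc4a5. Folr1 was at 0 counts in female no nicotine 1, and Slc4a5 at 0 counts in 5 libraries.

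Kl, Aqp1, F5 and Otx2 had a level in every library, and not all of the 4 libraries stood above the rest. Kl reached 47.0 CPM in male no nicotine 7, 25.2 in female air 3 and 21.5 in female no nicotine 3. Female air 6 had 11.7 CPM, close to the 11.4 CPM of female no nicotine 5, the highest of the other female libraries, and the other male libraries ran from 4.49 to 14.1 CPM. Aqp1 reached 12.3, 4.85 and 4.76 CPM in the first 3 of these libraries. It was also high, at 4.04 CPM in the library labelled male nicotine 21 and 3.65 CPM in male air 39, where Ttr was at 1.998 and 2.01 CPM. In the other 27 of the 29 libraries Aqp1 did not exceed 1.93 CPM. F5 stood apart in a single library, male no nicotine 7, at 10.8 CPM, against 1.34 to 3.86 CPM in the 29 others. Otx2 was highest among males in no nicotine 7 (4.36 CPM) and among females in no nicotine 3 (2.57 CPM), followed there by no nicotine 2 (2.11 CPM), a library with 5.79 CPM of Ttr, and female air 6 held 0.480 CPM.

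**Figure D2:**
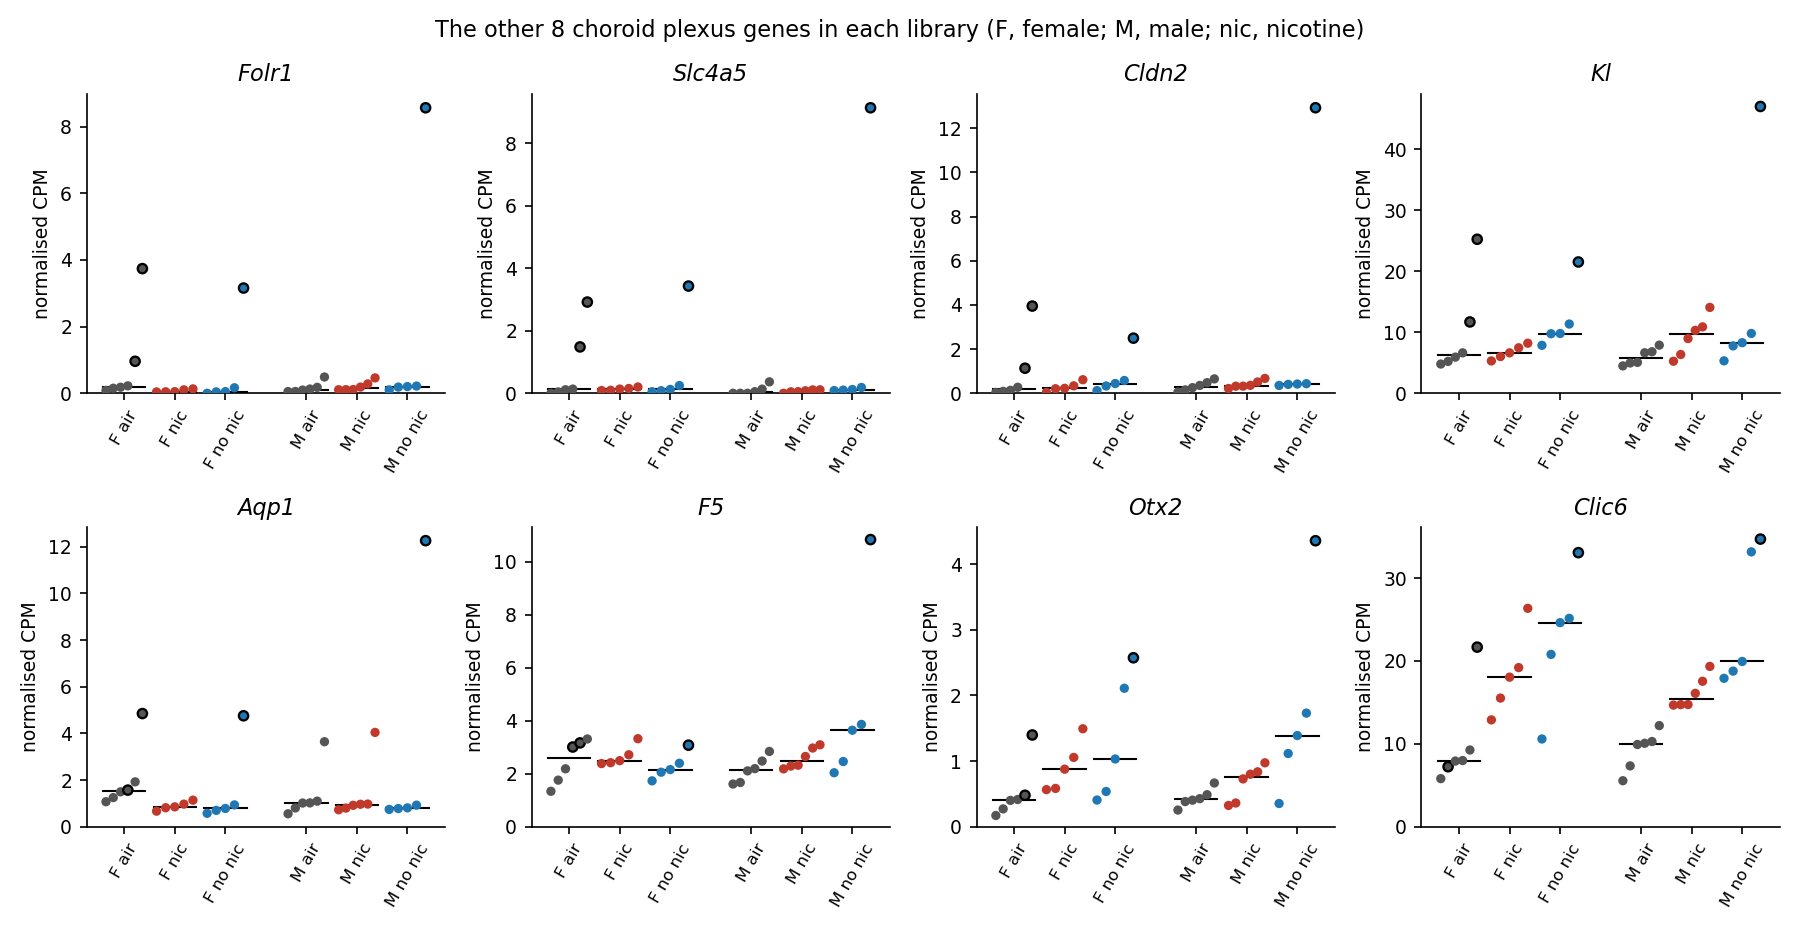
Normalised CPM of the 8 members other than Ttr in each library, by sex and exposure (F, female; M, male; nic, nicotine), on linear axes that start at 0. Lines are group medians and black rings mark the 4 libraries with the most Ttr, which lie above all others for Folr1, Slc4a5 and Cldn2, whereas Clic6 is also high in exposed libraries without a ring.

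Clic6 was spread over more libraries. Male air libraries ran from 5.56 to 12.2 CPM (median 9.998), male nicotine libraries from 14.7 to 19.3 CPM (median 15.4), and the male no nicotine libraries held 19.9, 33.2, 17.9, 18.8 and 34.7 CPM. Each of the 6 nicotine and 5 no nicotine libraries lay above each of the 6 male air libraries. Here and below, the share of all genes with groups apart in this way is not given. The comparisons with air called 0% and 13.6% of all male genes tested. At an unadjusted p below 0.05 (edgeR) were 2203 and 5509 of 15293 genes. The nicotine and no nicotine libraries overlapped. Female air libraries ran from 5.81 to 21.7 CPM (median 7.96), the female nicotine libraries held 18.0, 26.4, 12.9, 15.5 and 19.2 CPM, and the female no nicotine libraries 10.6, 24.6, 33.1, 20.8 and 25.1 CPM. Female air 3 was the highest air library, and without it the female air libraries ended at 9.26 CPM. Female air 6, with 87.2 CPM of Ttr, had 7.24 CPM of Clic6, and male no nicotine 3, with 8.25 CPM of Ttr, had 33.2 CPM of Clic6. In the plot of Clic6 against Ttr, male air libraries lay below all exposed male libraries on the Clic6 axis. On the Ttr axis male air 33, 37 and 38 (1.22, 0.535 and 0.255 CPM) also lay below the lowest exposed library (1.25 CPM). The other male air libraries lay among the exposed ones there, at 1.56 to 19.4 CPM.

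**Figure D3:**
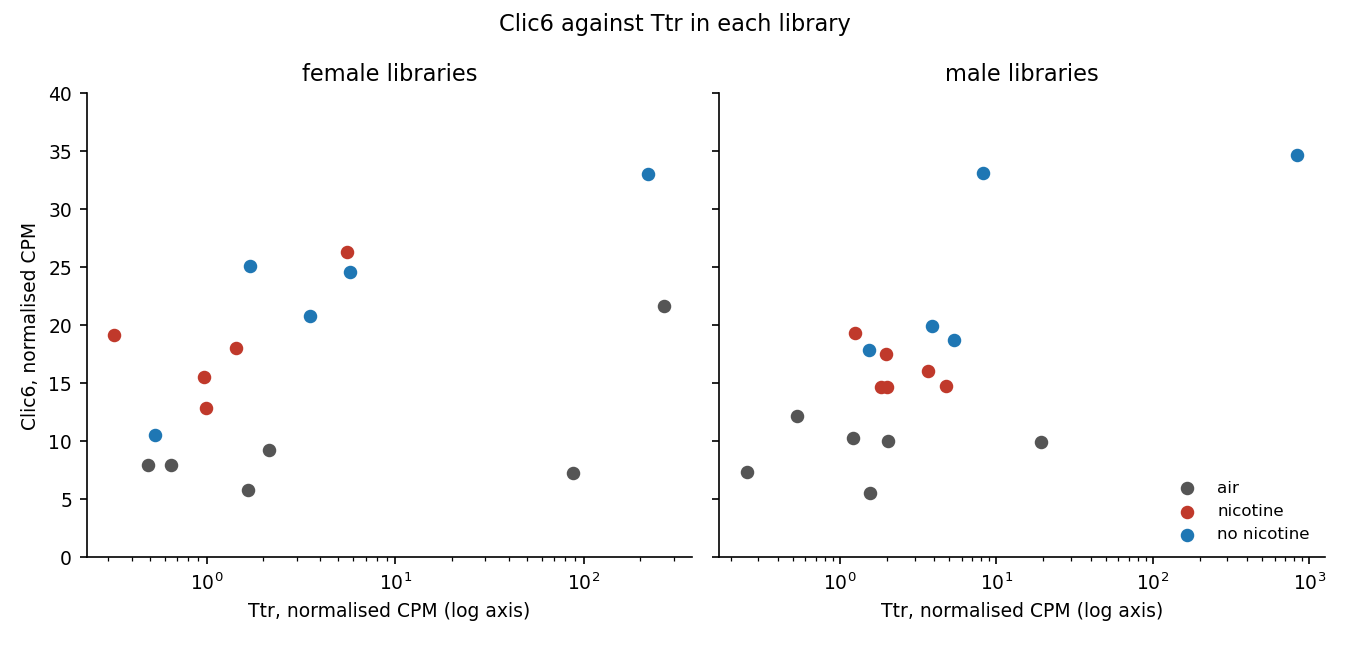
Clic6 (linear axis) against Ttr (log axis), normalised CPM, in the female and the male libraries, coloured by exposure. Male air libraries lie at or below 12.2 CPM of Clic6 and all exposed male libraries at or above 14.7 CPM, at Ttr levels from 1.25 to 838 CPM.

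Counts of the other members were set against those of Ttr in the 4 libraries, as a description, since the libraries were picked by their Ttr level. Per 100 Ttr counts, Folr1 had 1.02 (95% exact binomial interval 0.878 to 1.18) in male no nicotine 7, 1.40 (1.12 to 1.72) in female air 3, 1.44 (1.14 to 1.8) in female no nicotine 3 and 1.1 (0.688 to 1.67) in female air 6. Slc4a5 had 1.09, 1.09, 1.57 and 1.70 in the same order, and Cldn2 1.54, 1.47, 1.14 and 1.30. In male air 30, the next library by Ttr, the 3 ratios were 2.52 (1.29 to 4.45), 1.89 (0.859 to 3.62) and 3.36 (1.91 to 5.52). Kl per 100 Ttr counts ranged from 5.61 in male no nicotine 7 to 13.4 in female air 6, and Clic6 from 4.14 in male no nicotine 7 to 15.1 in female no nicotine 3. F5 had 3.45 in female air 6 and 1.18 to 1.41 in the other 3 libraries. The intervals cover counting error only.

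**Figure D4:**
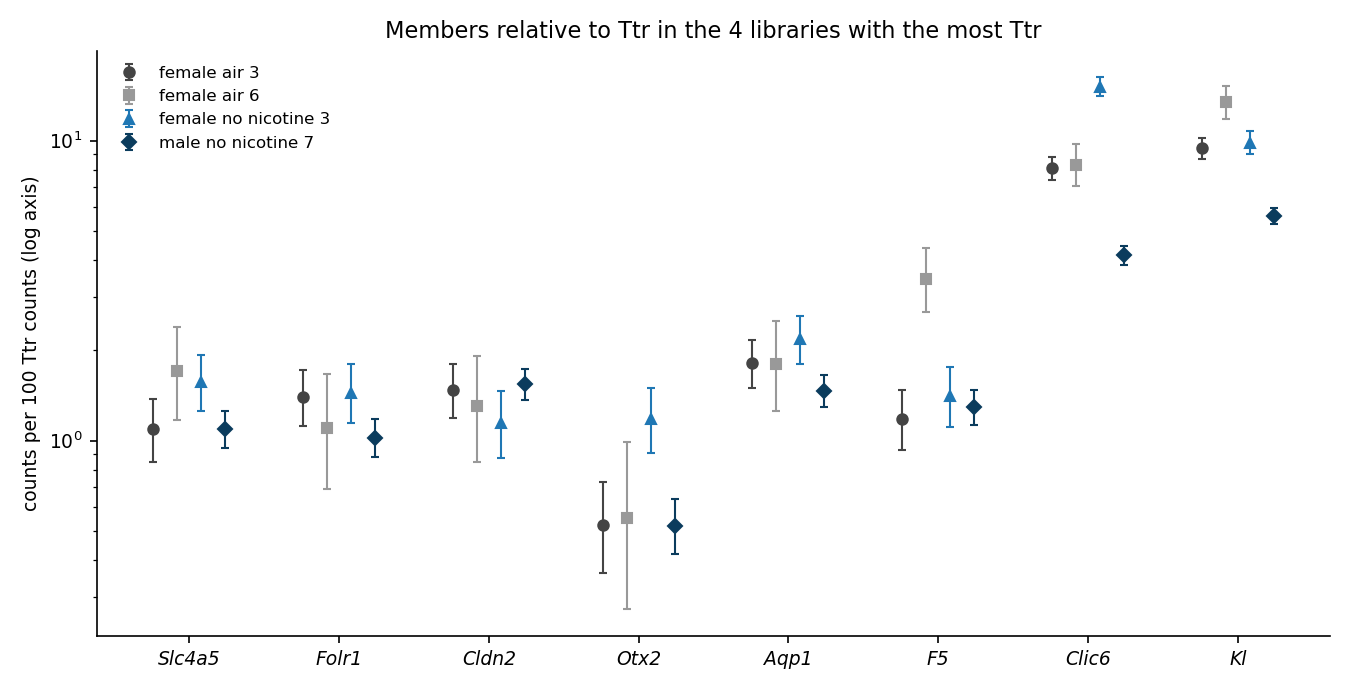
Counts of each other member per 100 Ttr counts, on a log axis, in female air 3, female air 6, female no nicotine 3 and male no nicotine 7, with 95% exact binomial intervals of counting error. Folr1, Slc4a5 and Cldn2 lie between 1.02 and 1.70 in all 4 libraries, and Kl and Clic6 spread from 4.14 to 15.1.

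Per kilobase of exon, Ttr was the most abundant member in male no nicotine 7, at 688 CPM per kilobase, followed by Kl (9.20) and Clic6 (8.87), and lowest was Otx2 (1.28). In female air 3, Ttr was at 220 CPM per kilobase, Clic6 at 5.54 and Kl at 4.94. By group medians the order was another: in male air libraries, Clic6 (2.55 CPM per kilobase) came before Kl (1.15) and Ttr (1.14), whose medians differed by less than their spread between libraries. Ttr made up 85.7% of the summed CPM of the 9 members in male no nicotine 7 and 1.63 to 45.3% in the other 16 male libraries, the highest of which was male air 30. In females it was 74.7 to 80.0% in air 3, air 6 and no nicotine 3 and 1.07 to 12.9% in the other 13.

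The summed level of a wider list of 27 genes of the choroid plexus epithelium was high in 3 of the 4 libraries. It was 234.1 CPM in male no nicotine 7 against 94.96 to 126.9 in the other male libraries, and 156.9 in female air 3 and 161.8 in female no nicotine 3 against 90.2 to 134.3 in the other 13 female libraries, whereas female air 6 lay among them at 113.9 CPM, 8th of 16. In males 25 of the 26 genes with any count were highest in no nicotine 7, as were 7.94% of all 15293 genes tested. In females 11 of 26 were highest in air 3 (2.48% of all 15158 genes tested), 6 of 26 in no nicotine 3 (8.54%) and 2 of 26 in air 6 (5.94%). Of the 3 genes of the list with the highest mean level, Slc29a4, a transporter of monoamines, had 38.3 CPM in male no nicotine 7 and 23.4 to 40.1 CPM in the other male libraries. Cab39l had 38.8 CPM against 31.05 to 34.5, and the carbonic anhydrase Car12 33.2 CPM against 10.99 to 26.1. Kcne2, a potassium channel subunit of this epithelium, had 5.54 CPM there and 1.97, 1.00 and 2.30 CPM in female air 3, air 6 and no nicotine 3, and at most 0.325 CPM in any other library. The summed markers of neighbouring cells lay within the range of the other libraries in the 4. The summed level of 13 genes of ciliated ependymal cells, which line the ventricle beside the plexus, was 34.4 CPM in male no nicotine 7 against 21.5 to 37.9 in the other male libraries, and 20.4 to 28.1 in the 3 female libraries against 17.9 to 30.8 in the others. It ranked 2nd of 17 in male no nicotine 7, where 5 of the 13 genes had their highest male level, and 2nd of 16 in female no nicotine 3, and its part in the members' levels was not tested. The sum of 11 genes of meningeal fibroblasts was 143.8 CPM in male no nicotine 7, 15th of 17, and ranked 7th, 14th and 15th of 16 in the 3 female libraries.

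The genes whose log2 CPM profile was most like the mean of the 9 members, by the lower of the correlations over 16 female and 17 male libraries, were Ccdc135 (r = 0.866), Sostdc1 (0.844), Kcne2 (0.826), Calml4 (0.819) and Tmem72 (0.804). These values are descriptions, over points that include the few libraries with high levels. By ranks, the correlations of the 5 genes ran from 0.724 to 0.817 in females and from 0.324 (Kcne2) to 0.738 (Calml4) in males. Sostdc1, a secreted inhibitor of BMP and Wnt ligands, had 12.5 CPM in male no nicotine 7 and at most 2.99 in the other male libraries. Ccdc135, a protein of motile cilia, had 4.36 CPM there and at most 0.935 in the other male libraries. Among the members themselves, Ttr, Cldn2, Folr1, Slc4a5 and Kl were within the first 6 genes of this order and Clic6 was 76th, but each is itself part of the mean.

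Whether aerosol without nicotine changed the members was asked against air. In males, 3 of 9 members were called higher, against 13.6% of all genes tested. Clic6 rose by a log2 fold change of 1.44 ± 0.19 (adjusted p = 6.0e-05), Otx2 by 2.02 ± 0.46 (adjusted p = 0.00343) and Ttr by 5.28 ± 1.36 (adjusted p = 0.00839). The means were 24.9 ± 8.30 against 9.23 ± 2.38 CPM for Clic6 (SD, n = 5 and 6) and 1.79 ± 1.52 against 0.438 ± 0.136 CPM for Otx2 (SD, n = 5 and 6). Otx2 held 1.12, 1.39, 1.73, 0.354 and 4.36 CPM in the no nicotine libraries and ran from 0.255 to 0.667 CPM, median 0.417, in air, so that 4 of 5 lay above all air libraries. For the other 6 members the log2 fold changes ran from 1.08 (F5) to 4.18 (Slc4a5) and did not pass, with adjusted p from 0.0193 to 0.271.

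The fold change of Ttr rested on 1 library, and its call was also lost with robust estimation (adjusted p = 0.0232, edgeR) and, in all, without any 1 of 12 libraries. Without male no nicotine 7 the log2 fold change of Ttr was 0.14 ± 0.79 (adjusted p = 0.923), Cldn2 went from 3.08 to 0.26, Kl from 1.38 to 0.39, and Aqp1 from 1.18 to -0.72. Folr1 and Slc4a5 then fell below the filter, which they had passed through that library. Clic6 and Otx2 kept their calls, at 1.29 ± 0.19 (adjusted p = 0.000101, edgeR) and 1.40 ± 0.37 (adjusted p = 0.00907, edgeR), and were 2 of 7 members tested against 14.3% of all genes in that fit. In DESeq2, 5 members including Ttr had no adjusted p, and Clic6, Otx2 and F5 were called. The call of Otx2 was lost when the 2 groups were fitted alone (adjusted p = 0.0103, edgeR) and without male air 38 (1.89, adjusted p = 0.0105, edgeR).

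**Figure D5:**
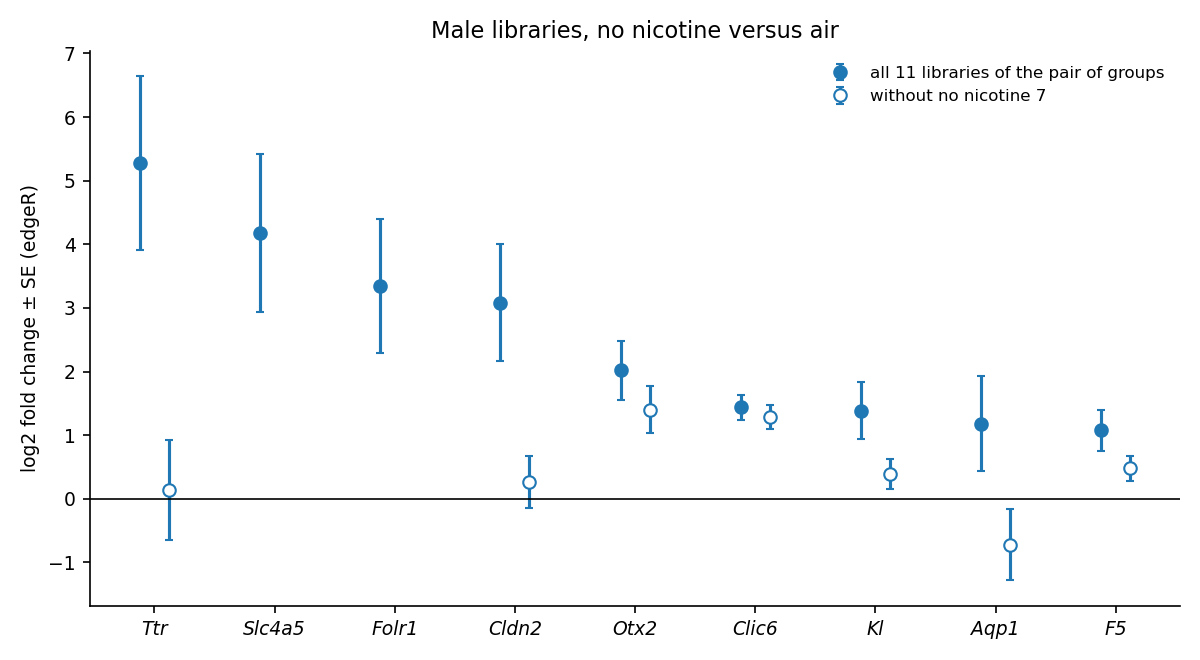
Log2 fold change (edgeR, ± SE) of the 9 members in male no nicotine against male air libraries, with all libraries (filled) and without no nicotine 7 (open). Ttr moves from 5.28 to 0.14, Cldn2 from 3.08 to 0.26, Clic6 from 1.44 to 1.29 and Otx2 from 2.02 to 1.40, and Folr1 and Slc4a5 have no open point because they fell below the filter.

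In females, none of the 9 members was called between no nicotine and air, against 12.1% of all genes tested. An unadjusted p below 0.05 (edgeR) was reached by 2 members and by 5524 of 15158 genes. Clic6 came closest, at 1.19 ± 0.31 (adjusted p = 0.01002, edgeR), with means of 22.8 ± 8.17 and 9.98 ± 5.83 CPM (SD, n = 5 and 6). It was called in DESeq2 (adjusted p = 0.00478) and without female air 3 (1.57, adjusted p = 0.000928, edgeR). Otx2 was at 1.32 ± 0.51 (adjusted p = 0.0677, edgeR), with 0.407, 2.11, 2.57, 0.537 and 1.03 CPM in the no nicotine and 0.172 to 1.40 CPM, median 0.409, in the air libraries. Ttr was at -0.37 ± 1.33, each group holding at least 1 of the libraries with high Ttr. Without female air 3, air 6 and no nicotine 3 together, none of the 6 members still tested was called, against 0.121% of all genes, with Clic6 at 1.38 (adjusted p = 0.0103, edgeR) and Kl at 0.78 (adjusted p = 0.0103, edgeR).

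With nicotine, no member was called against air in either table. In females the background was 4.29% of all genes called, and 4258 of 15158 genes had an unadjusted p below 0.05 (edgeR). So had 4 of 9 members, namely Clic6, Ttr, Folr1 and Aqp1. Clic6 was higher by 0.87 ± 0.31 (adjusted p = 0.0740, edgeR). Ttr was at -5.09 ± 1.91 (adjusted p = 0.0901, edgeR), with means of 1.85 and 60.04 CPM, and 0.57 (adjusted p = 0.705, edgeR) without female air 3, air 6 and no nicotine 3. Clic6 was then at 1.25 (adjusted p = 0.0138, edgeR), and none of the 6 members tested was called against 0.838% of all genes. Leaving out female air 3 alone brought the call of Clic6 (1.26, adjusted p = 0.00462, edgeR). In males the background was 0% in edgeR, which called none of 15293 genes, 2203 of which had an unadjusted p below 0.05, whereas DESeq2 called 140. Clic6 was at 0.82 ± 0.19 (adjusted p = 0.0671, edgeR, and 0.00277, DESeq2), higher than all 6 air libraries in 6 of 6 nicotine libraries. Without the library labelled male nicotine 21 Clic6 was at 0.85 (adjusted p = 0.0992, edgeR) and Aqp1 went from 0.08 to -0.61. Both comparisons with air in a table share their air libraries, so they are not independent of each other.

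Nicotine against no nicotine called no member. In females the background was 0%, with no gene called by edgeR or DESeq2 and 1267 genes at an unadjusted p below 0.05, and 1 member, Ttr, was below 0.05. In males it was 0.248%, with 3071 of 15293 genes at an unadjusted p below 0.05 (edgeR). Of the 9 members 7 were below 0.05. Among them were Folr1 and Slc4a5, which passed the filter only through male no nicotine 7. Ttr had the smallest adjusted p there (-6.09 ± 1.48, adjusted p = 0.0307, edgeR), and it was at -0.90 (adjusted p = 0.594, edgeR) without male no nicotine 7.

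The change against air was also compared between the tables, in a fit of all 6 groups to 15105 genes. No member differed for nicotine or for no nicotine, against a background of 0% for each, and DESeq2 called no member either. For nicotine none of the 9 members had an unadjusted p below 0.05 in edgeR, against 978 of 15105 genes. For no nicotine 5 of 9 had, against 742 of 15105 genes, and the smallest adjusted p of a member was 0.945. The run and the sex cannot be told apart in this fit.

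Other transcripts moved with Clic6 and Otx2, and their part in the result was not tested. The summed level of 7 genes of basal forebrain cholinergic neurons ran from 34.9 to 82.0 CPM in male air, 94.5 to 144.0 in male nicotine and 111.7 to 238.2 in male no nicotine libraries, and from 20.1 to 79.6, 83.5 to 195.1 and 109.0 to 288.6 CPM in the female groups. All 7 were called higher in female nicotine and in no nicotine of either sex against air, where 4.29%, 12.1% (females) and 13.6% (males) of all genes were called, and none in male nicotine (0%). The 8 cortical glutamatergic markers ran the other way, from 2412 to 2905 CPM in male air, 1694 to 2404 in male nicotine and 797.5 to 1762 in male no nicotine libraries, and 7 of 8 were called lower in no nicotine against air in each sex (12.1% and 13.6% of all genes called in either direction). None of these 15 genes was at 0 in any library. In male no nicotine 7, which had the most Ttr, the basal forebrain sum was 111.7 CPM, 10th of 17, and in female no nicotine 3 it was 288.6 CPM, the highest of 16.

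Of the wider choroid plexus list, 21 of 27 genes were tested in each table. In male no nicotine against air 4 of 21 were called higher and none lower, against 13.6% of all genes: the prolactin receptor Prlr (2.66 ± 0.50), Calml4 (2.63 ± 0.66), Tmem72 (2.61 ± 0.60) and the retinol dehydrogenase Rdh5 (0.69 ± 0.16). Without male no nicotine 7, Prlr stayed called at 2.14, Tmem72 at 1.58 and Rdh5 at 0.44, and Calml4 fell below the filter on low counts and was not tested. Prlr held 8.23, 8.68, 14.8, 2.43 and 27.5 CPM in the no nicotine libraries and 0.800 to 3.90 CPM in air. In the other 5 comparisons, where 0% to 12.1% of all genes were called, none of the 21 was called. Of 7 choroid plexus genes that other brain cells also use, the sodium potassium chloride cotransporter Slc12a2 rose in females with nicotine (0.41 ± 0.06) and without (0.33 ± 0.06), and none of the 7 was called in the other 4 comparisons. In males without nicotine Slc12a2 was at 0.30 (adjusted p = 0.0111, edgeR), and it was called without male no nicotine 7 (0.34, adjusted p = 0.00512, edgeR). The female call without nicotine was lost without female air 3, air 6 and no nicotine 3 together (0.33, adjusted p = 0.0160, edgeR). The 3 with the highest level were Enpp2, Igf2 and Htr2c. Enpp2, which makes lysophosphatidic acid, had 551 CPM in male no nicotine 7 against 168 to 291 in the other male libraries, while Igf2 had 205 against 139 to 518 CPM and Htr2c, a serotonin receptor, 159 against 134 to 206 CPM.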

How the data were processed

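Frontal cortex RNA was sequenced as single 50-base reads, with female and male samples in separate runs. The authors mapped reads to the mm9 transcriptome with Bowtie, removed PCR duplicates with SAMtools and counted reads per gene with HTSeq, and deposited 1 table of counts per sex with 23366 genes each. The normalised tables were not used here. Of the columns of counts, 1 matched no sample and was not used here. The unit of each gene in the deposited tables is raw counts, so the depth of each library is its total. The members and all gene lists were chosen with earlier results of these data known.

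Genes with a summed CPM of at least 5 over a table were normalised with TMM. The 3 groups of a table were then tested in edgeR 4.0.16 by quasi-likelihood, with Benjamini-Hochberg adjustment over all genes tested and a threshold of 0.01. Changes in the 2 tables were compared in a fit of all 6 groups. The paper states that a single pup per litter was used, and the labels of the samples name no litter. All 9 members were named, and from the wider lists the called genes and the 3 of highest mean level, as well as the 5 genes most like the members' mean profile of log2 CPM (prior count 1). Alternatives were DESeq2 1.42.0, RLE and upper quartile scaling, other filters, robust estimation, fits of 2 groups, a replicate block in females, omission of each library, and plain library totals. The test was checked on simulated counts with 200 genes changed by a log2 fold change of 1, of which it recovered 182 in females and 171 in males for nicotine against air, with 1 false call each among 15158 and 15293 genes. Gene positions came from GENCODE vM1 on mm9. Gene lengths are the union of annotated exons.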

Additional observations from a re-analysis of the deposited data

Results flagged for a closer look

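Within each group of 5 or 6 libraries the highest and the lowest value of each member was compared with the others by its gap over the range (Dixon, 95%). Of 54 groups 26 held a library that stood apart, and chance flags about 1 in 20 independent groups. In 20 of the 26 that library was female air 3, female no nicotine 3 or male no nicotine 7. The 54 are not independent, since the members share their libraries and were chosen with results known, so the count is no test. Ttr stood apart at 268 CPM in female air 3, 5.56 CPM in female nicotine 2, 219 CPM in female no nicotine 3, 19.4 CPM in male air 30 and 838 CPM in male no nicotine 7. Kl stood apart at 25.2 CPM in female air 3, 21.5 CPM in female no nicotine 3 and 47 CPM in male no nicotine 7. Folr1 stood apart at 3.74 CPM in female air 3, 3.16 CPM in female no nicotine 3, 0.488 CPM in male air 30 and 8.57 CPM in male no nicotine 7. Clic6 stood apart at 21.7 CPM in female air 3. Aqp1 stood apart at 4.85 CPM in female air 3, 4.76 CPM in female no nicotine 3, 3.65 CPM in male air 39, 4.04 CPM in the library labelled male nicotine 21 and 12.3 CPM in male no nicotine 7. Otx2 stood apart at 1.4 CPM in female air 3. Slc4a5 stood apart at 3.43 CPM in female no nicotine 3, 0.366 CPM in male air 30 and 9.14 CPM in male no nicotine 7. Cldn2 stood apart at 3.95 CPM in female air 3, 2.5 CPM in female no nicotine 3 and 12.9 CPM in male no nicotine 7. F5 stood apart at 10.8 CPM in male no nicotine 7. The highest Aqp1 values of male air and male nicotine came from libraries that did not stand apart in Ttr (2.01 and 1.998 CPM). No member changed in opposite directions in all exposed libraries of the 2 tables, and none differed between the tables by the test of the difference.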

How the results depend on the processing

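The level of Ttr in male no nicotine 7 was much the same by plain library total. In males, no nicotine against air, 3 members were called, and 1 (Clic6) when only the 2 groups were fitted, with a range of 1 to 4 when a library was left out (lowest without male air 38). Ttr lost its call there with robust estimation (adjusted p = 0.0232, edgeR) and without any 1 of 12 libraries (each male air library but 30, each nicotine library, and no nicotine 7). In females, no nicotine against air, no member was called, but Clic6 alone (1 member) was called by DESeq2, without a filter on low counts, with robust estimation and with upper quartile normalization. Leaving out a library gave 0 to 1 there (1 without female air 3, nicotine 3 or no nicotine 1), and 0 to 1 for nicotine against air (1 without female air 3). In males, nicotine against air, DESeq2 called 1 member, Clic6. The cause was not tested. In the other comparisons the counts of called members did not move.

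With replicate number as a replicate block, 0 members were called in each female comparison, and the log2 fold change of Cldn2 without nicotine turned from -0.22 to 0.015. The numbers did not pair the libraries: the deviations of 14 same-numbered pairs correlated between -0.273 and 0.266, 4 of 14 above 0.1, and 7 of 16 libraries correlated best with their own number.

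Some log2 fold changes, none of them called, changed sign with a library left out. In females with nicotine against air F5 ran from -0.0085 to 0.22. Without nicotine against air the ranges were -1.44 to 0.10 for Aqp1, -1.36 to 1.29 for Cldn2, -3.70 to 1.15 for Folr1, -0.036 to 0.82 for Kl, -2.57 to 1.20 for Slc4a5 and -4.42 to 1.33 for Ttr. For nicotine against no nicotine they were -1.03 to 0.25 for Aqp1, -3.52 to 0.17 for Folr1 and -2.83 to 0.082 for Slc4a5. In males with nicotine against air they were -0.61 to 0.66 for Aqp1, -0.072 to 1.00 for Folr1, -0.82 to 0.72 for Slc4a5 and -1.06 to 1.17 for Ttr. For nicotine against no nicotine they were -1.80 to 0.80 for Aqp1 and -0.95 to 0.26 for Kl, and without nicotine against air -0.72 to 1.76 for Aqp1. In fits chosen after seeing the data, without female air 3, air 6 and no nicotine 3 together, Kl turned to 0.26 and Ttr to 0.57 for nicotine against air, Ttr to 1.23 without nicotine, and Aqp1 to 0.26 between the aerosols. Counts of 0 to 16 for Folr1, Slc4a5 and Cldn2 in 29 of 33 libraries limit what their fold changes can show.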

Other observations

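The Ttr counts can be set beside the number of positions at which a read can start. The annotated Ttr transcript has 1219 bases, which gives 2340 start positions for 50-base reads over both strands. Male no nicotine 7 held 17708 Ttr counts, 7.57 per position, female air 3 held 2.79 and female no nicotine 3 held 2.40 per position, so reads that share a start position are among the deposited counts of these libraries. The other 30 libraries lay below 1, female air 6 being highest at 0.854. Between 343 and 659 genes of a library had more counts than 2 per exon base.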
